A study of Sus scrofa with 15 samples.

Results

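The genes described here are 10 sensors of viral RNA and DNA and their closest partners, measured in pig oocytes before and after in vitro maturation. They were picked by symbol from the 22516 genes of the deposited gene table, and all 10 have a row there. The sensors of foreign RNA in the cytoplasm are RIG-I (*RIGI*), MDA5 (*IFIH1*) and LGP2 (*DHX58*), which bind double-stranded RNA. RIG-I and MDA5 pass the signal to *MAVS* on mitochondria, with the ubiquitin ligase *TRIM25* as a partner of RIG-I, and the transcription factor *IRF3* then switches on interferon genes. Double-stranded RNA is also bound by the kinase PKR (*EIF2AK2*), which stops translation, and by *ADAR*, which edits adenosine to inosine and so marks RNA as the cell's own. Foreign DNA is sensed by cGAS (*CGAS*), whose product activates STING (*STING1*).

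Each of the 15 libraries came from 15 pooled oocytes of sow ovaries, with 5 libraries per group collected independently. Oocytes at the germinal vesicle (GV) stage were freed of cumulus cells without culture. Oocytes matured in vitro inside their cumulus complexes for 44 h were freed of cumulus cells and sorted into MII, with a first polar body, and ‘damaged’, without one, and MIX joins both. Since culture and stage changed together, they cannot be told apart, and neither can the amount of a transcript and the RNA content of an oocyte. The cDNA was primed on poly(A) tails, so the values refer to polyadenylated transcripts. Estimated counts summed to 6.40 to 23.6 M per library, and the library with the lowest total, GV replicate 3, was left out of the tests. It was assumed to be the shallow GV library that the study removed without naming it. Of the 15 columns of the gene table, 7 carry the name of another library than the one with the same total, and 4 of these cross GV and MIX. The gene values of each library were therefore computed from its own transcript file, so the group of every value is the one that file has in the labels. The oocyte markers, led by *H1-8*, *ZP2* and *ZP4*, are given in CPM (counts scaled by library size to a common total). They summed to 11930 to 14470 CPM in GV, 8184 to 11319 in MII and 9242 to 11770 in ‘damaged’ oocytes, in the 14 libraries. Of 13 tested, 1 was called higher and 7 lower in MIX (limma), and 1 higher and 12 lower on library sizes alone. As background for this and the next marker lists, 4013 of all 13228 genes tested were called higher and 4919 lower. On library sizes alone, 1598 of them were called higher and 7996 lower. *H1-8* averaged 1168 CPM in GV and 2898 in MIX, while *GDF9* averaged 2008 and 321. Cumulus and granulosa markers, 17 of which were measured, summed to 169 to 321 CPM in GV, 815 to 1064 CPM in MII and 775 to 982 CPM in ‘damaged’ oocytes. Nearly all of this was the matrix gene *VCAN*, and without it the other 16 summed to 24.0 to 46.7 CPM in all groups. The next in level were *FST*, with 7.23 CPM ± 1.03 in GV (SD, n = 4) and 21.1 ± 3.07 in MIX (SD, n = 10), and *SERPINE2*, with 16.7 ± 4.49 and 11.9 ± 4.01. Of the 6 cumulus and granulosa markers that passed the filter, 3 were called higher and 0 lower in MIX (limma), and 2 higher and 3 lower on library sizes alone. *FSHR*, *AMH* and *HAS2* stayed at 0.848 CPM or less, and *LHCGR* and *PTX3* were at 0 or not placed. Other markers of this list were higher, with *TNFAIP6* at up to 3.18 CPM and *CD44* at up to 2.37 CPM in the 14 libraries. *PTGS2* had 0.677 CPM ± 0.280 in GV (SD, n = 4) and 1.59 ± 0.300 in MIX (SD, n = 10). The 12 measured leukocyte and blood markers summed to 13.0 to 16.4 CPM in GV and 6.28 to 8.69 CPM in MIX oocytes. Of the 6 that passed the filter, 0 were called higher and 4 lower in MIX (limma), and 0 higher and 5 lower on library sizes alone. *CD14* averaged 6.14 CPM in GV and 2.14 in MIX. *PTPRC*, at 1.40 CPM or less, went the other way, from a mean of 0.151 to 0.608 CPM. The part of either list in the results was not tested.

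After maturation *RIGI* and *IFIH1* were higher, *DHX58*, *MAVS*, *ADAR*, *IRF3* and, less securely, *CGAS* were lower, and *EIF2AK2* did not pass the test. *RIGI* rose 4.36-fold and *IFIH1* 2.99-fold, while *DHX58*, another helicase of the same family, was lower by 2.10 on the log2 scale. Levels are CPM on library sizes corrected for composition by TMM factors. These ranged between 1.35 and 1.73 for GV and between 0.794 and 0.922 for MIX, and leaving them out moved the median over all genes tested from -0.16 to -1.05 on the log2 scale. A gene was called at an adjusted p under 0.01 (limma voom, Benjamini-Hochberg over 13228 genes) and was a DEG with an absolute log2 fold change over 2 as well. Of the 10 genes, 8 passed the filter on low counts. In MIX versus GV, 2 were called higher and 5 lower, where 30.3% of all genes tested were called higher and 37.2% lower. The median log2 fold change of the 8 was -1.19. Of the 8, *RIGI* was a DEG with a rise and *DHX58* and *IRF3* were DEGs with a fall, against 4.27% and 16.7% of all genes. This label changed with the setting for *RIGI*, *DHX58*, *ADAR* and *MAVS*. *RIGI* was under the limit of 2 on library sizes alone (1.22) and without GV replicate 2 (1.998). *DHX58* was under it without GV replicate 5 (-1.91) and with estimated counts summed per gene (-1.9996). *ADAR*, at -1.99, passed it with all 5 GV libraries (-2.27), with edgeR (-2.03) and on library sizes alone (-2.88). *MAVS* passed it on library sizes alone (-2.44). On library sizes alone, 16.7% of all calls were higher, against 44.9% with TMM factors, *IFIH1* was no longer called (adjusted p = 0.0478) and *EIF2AK2* was called lower by 1.02 on the log2 scale.

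**Figure D1:**
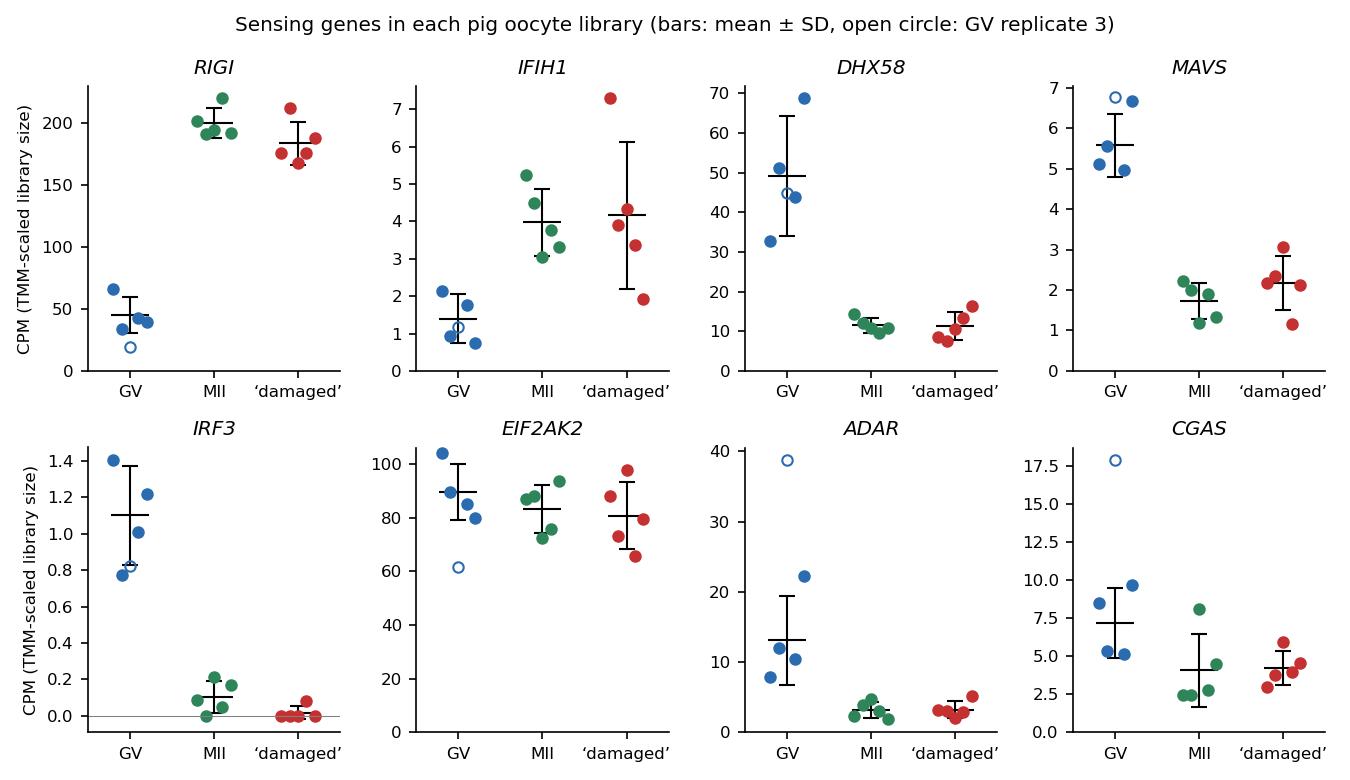
Level of each of the 8 measured sensing genes (CPM on TMM-scaled library sizes, linear axes) in each GV, MII and ‘damaged’ library. Points are libraries, bars are the mean ± SD of 4 GV, 5 MII and 5 ‘damaged’ libraries, and the open circle is GV replicate 3, which is not in the mean. *RIGI* lay at 66.4 CPM or less in GV and at 167 CPM or more in every other library, and *DHX58*, *MAVS*, *ADAR* and *IRF3* separated the other way.

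*RIGI* (ENSSSCG00000030408, chromosome 10, 33891720 to 33976151 on Sscrofa11.1) encodes the helicase that recognises short double-stranded RNA with a 5′ triphosphate. Its level in GV replicates 1 to 5 was 66.4, 33.4, 19.2, 42.3 and 39.3 CPM. In MII replicates 1 to 5 it was 202, 191, 194, 220 and 192 CPM, and in ‘damaged’ replicates 1 to 5 it was 176, 212, 167, 176 and 187 CPM. All 10 MIX libraries lay above all 5 GV libraries, and MII and ‘damaged’ overlapped. The means were 45.4 CPM ± 14.5 (SD, n = 4) in GV, 200 CPM ± 11.9 (SD, n = 5) in MII and 184 CPM ± 17.3 (SD, n = 5) in ‘damaged’ oocytes. The log2 fold change of MIX versus GV was 2.12 (SE 0.139, adjusted p = 1.81e-11), and it stayed called on library sizes alone at 1.22. Among all genes tested, 96.7% had a log2 fold change at or below that of *RIGI*.

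*IFIH1* (ENSSSCG00000015897, chromosome 15, 68930998 to 68985145) encodes MDA5, which coats long double-stranded RNA. It was a scarce transcript, at 2.14, 0.94, 1.18, 1.77 and 0.76 CPM in GV replicates 1 to 5. MII replicates 1 to 5 had 5.24, 4.50, 3.05, 3.77 and 3.32 CPM, and ‘damaged’ replicates 1 to 5 had 7.30, 3.91, 4.32, 3.36 and 1.92 CPM. MII lay wholly above GV, whereas ‘damaged’ replicate 5 fell within the GV range. The log2 fold change of MIX versus GV was 1.58 (SE 0.323, adjusted p = 0.000165), resting on 18.2 to 41.9 estimated counts in each of the 4 GV libraries tested.

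*DHX58* (ENSSSCG00000017416, chromosome 12, 20647698 to 20656691) encodes LGP2, which binds RNA but lacks the signalling domains of the other sensors. It had 32.7, 51.2, 44.8, 43.8 and 68.8 CPM in GV replicates 1 to 5. It had 14.4, 12.0, 10.7, 9.45 and 10.7 CPM in MII and 8.65, 7.56, 10.5, 13.5 and 16.5 CPM in ‘damaged’ replicates 1 to 5. Every GV library exceeded every MIX library. The log2 fold change was -2.10 (SE 0.186, adjusted p = 2.06e-09) and -2.98 on library sizes alone.

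The opposite changes of *RIGI* and *DHX58* turned the order of their mean levels around, although *RIGI* already exceeded *DHX58* in GV replicate 1. Length-normalized values (TPM) divide by transcript length and allow levels of different genes to be compared within a library. The TPM ratio of *RIGI* to *DHX58* was 1.20, 0.385, 0.570 and 0.337 in GV replicates 1, 2, 4 and 5, and 0.252 in GV replicate 3. In MIX it ran from 6.71 to 16.5. The mean ratio was thus 18.6-fold higher in MIX on the log scale. A ratio within a library does not depend on how libraries are scaled. Of the 4 ratios examined, *RIGI* to *MAVS* rose 12.9-fold from 9.17 to 20.2 in GV to 85.2 to 256 in MIX. Since each of these genes already separated the stages, the separation of both ratios follows from their levels and was given no test. *EIF2AK2* to *ADAR* rose 3.63-fold, from 4.19 to 15.6 in GV to 17.9 to 56.5 in MIX. As *ADAR* alone already separated the stages, this rise largely follows from the fall of *ADAR*, and no p-value is given for it. *RIGI* to *IFIH1* differed by 1.45-fold, less than the spread between libraries could separate (two-sided exact permutation p = 0.0999). None of the 4 ratios separated MII from ‘damaged’ oocytes, with exact permutation p-values of 0.151 to 0.841.

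*MAVS* (ENSSSCG00000007143, chromosome 17, 31850646 to 31869273), the mitochondrial adaptor that RIG-I and MDA5 share, was lower after maturation. GV replicates 1 to 5 had 5.12, 5.56, 6.76, 4.95 and 6.67 CPM. MII replicates 1 to 5 had 2.22, 1.998, 1.18, 1.89 and 1.33 CPM, and ‘damaged’ replicates 1 to 5 had 2.18, 2.35, 3.06, 1.16 and 2.11 CPM. The groups before and after maturation did not overlap, and the log2 fold change was -1.56 (SE 0.208, adjusted p = 8.56e-07). In each MIX library *MAVS* thus lay below, and *RIGI* above, every GV library.

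*TRIM25* (ENSSSCG00000017614, chromosome 12, 33184039 to 33212440), which attaches ubiquitin chains to RIG-I, was listed at 0 in 14 of the 15 columns. In the remaining column, whose total is that of GV replicate 3, it had 2.07 estimated counts. A count of 0 allows up to 3 counts in a library. On library sizes this is 0.127 to 0.251 CPM in the 14 libraries where *TRIM25* was at 0, and 0.469 CPM in GV replicate 3. The gene was not tested, and expression below this limit was not detectable.

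*IRF3* (ENSSSCG00000003178, chromosome 6, 54701733 to 54706079) had the lowest fold change of the 8 genes. It had 27.5, 15.1, 8.65, 21.2 and 29.3 estimated counts in GV replicates 1 to 5. In MII replicates 1 to 5 it had 0.92, 0, 2.75, 0.92 and 2.75, and in the ‘damaged’ group 4 of 5 libraries were at 0 and replicate 4 had 1.30. All 10 MIX libraries lay below all GV libraries. Summed over libraries, 8.64 counts in MIX stood against 93.0 in 4 GV libraries, a ratio of 0.0539 on TMM-scaled library sizes (95% exact interval 0.0249 to 0.111, on counts rounded to whole numbers and for counting error only). The ratio to GV was 0.0927 (0.0346 to 0.190) for MII and 0.0160 (0.00031 to 0.0706) for ‘damaged’ oocytes. The fitted log2 fold change of -3.95 (SE 0.431, adjusted p = 4.42e-08) depends on the small count added to each library by voom.

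*EIF2AK2* (ENSSSCG00000008496, chromosome 3, 103041029 to 103096741), the gene of PKR, was abundant throughout. GV replicates 1 to 5 had 104, 89.5, 61.6, 85.1 and 79.8 CPM. MII replicates 1 to 5 had 87.0, 88.0, 72.4, 75.7 and 93.6 CPM, and ‘damaged’ replicates 1 to 5 had 88.1, 73.0, 97.7, 65.7 and 79.5 CPM. All groups overlapped. The log2 fold change was -0.13 (95% confidence interval -0.37 to 0.12, adjusted p = 0.327), close to the median of all genes of -0.16 on this scale.

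*ADAR* (ENSSSCG00000006543, chromosome 4, 95154230 to 95197308), the editing enzyme, fell. It had 7.82, 12.1, 38.7, 10.4 and 22.2 CPM in GV replicates 1 to 5, a wide spread with GV replicate 3 on top. It had 2.28, 3.96, 4.73, 2.99 and 1.94 CPM in MII and 3.21, 3.01, 2.07, 2.85 and 5.16 CPM in ‘damaged’ replicates 1 to 5. The highest MIX library stayed below the lowest GV library. The log2 fold change was -1.99 (SE 0.255, adjusted p = 4.47e-07).

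*CGAS* (ENSSSCG00000021383, chromosome 1, 92483253 to 92500376), the enzyme that senses cytosolic DNA, changed least among the called genes. GV replicates 1 to 5 had 8.49, 5.32, 17.9, 5.17 and 9.71 CPM. MII replicates 1 to 5 had 2.48, 2.46, 8.12, 2.78 and 4.49 CPM, and ‘damaged’ replicates 1 to 5 had 2.99, 3.79, 5.96, 3.94 and 4.59 CPM. MII replicate 3 and ‘damaged’ replicate 3 overlapped the GV libraries. The log2 fold change of MIX versus GV was -0.83 (SE 0.254, adjusted p = 0.00604). The call was lost with edgeR (adjusted p = 0.0123), with DESeq2 (adjusted p = 0.0121), without a filter on low counts (adjusted p = 0.0111) and without GV replicate 1 or 5, MII replicate 1, 2 or 4 or ‘damaged’ replicate 1 (adjusted p = 0.0109 to 0.0383). It was kept in limma on library sizes alone (-1.72) and with all 5 GV libraries (-1.05, adjusted p = 0.00214). With the replicate number as a block it was kept as well (-1.03, limma adjusted p = 0.000139). Whether these numbers pair the libraries was not settled. *STING1* (ENSSSCG00000014349, chromosome 2, 141359402 to 141367222), which relays the signal of cGAS, was at 0 in all 15 columns, with the same limit of 3 counts per library as *TRIM25*. RefSeq lists *RIGI*, *CGAS* and *STING1* under their older symbols *DDX58*, *MB21D1* and *TMEM173*.

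Of the 8 genes, *RIGI* alone had MIX libraries wholly above the 4 GV libraries, and *DHX58*, *MAVS*, *ADAR* and *IRF3* had them wholly below. Among all genes tested, 24.3% were wholly above and 29.4% wholly below.

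The question whether MII and ‘damaged’ oocytes differ in these genes was addressed in a fit of all 3 groups. Against GV, MII had *RIGI* and *IFIH1* called higher and *DHX58*, *MAVS*, *ADAR* and *IRF3* called lower, where 28.2% of all genes were higher and 34.2% lower. ‘Damaged’ oocytes had calls for the same 6 genes in the same directions, against a background of 28.0% higher and 33.4% lower. Both comparisons share the GV libraries. *RIGI* had a log2 fold change of 2.19 in MII and 2.06 in ‘damaged’ oocytes, and *DHX58* -2.08 and -2.11. *CGAS* was not called in either, at -0.93 (adjusted p = 0.0107) and -0.72 (adjusted p = 0.0368), but was called in MII with all 5 GV libraries (-1.15, adjusted p = 0.00585), in both on library sizes alone (-1.85 and -1.60), and in MII without GV replicate 2 or 4, MII replicate 3 or ‘damaged’ replicate 3 (limma, adjusted p = 0.000914 to 0.00964). Compared directly, 0 of the 8 genes and 0% of all genes tested were called between MII and ‘damaged’ (limma, 194 genes at an unadjusted p under 0.05, and 273 with edgeR and 251 with DESeq2, which also called 0). For *RIGI* the log2 difference of MII minus ‘damaged’ was 0.13 (95% confidence interval -0.17 to 0.42) and for *EIF2AK2* 0.05 (-0.23 to 0.33). The intervals were wider for the scarce genes, with -0.31 (-0.90 to 0.28) for *MAVS* and -0.05 (-0.78 to 0.69) for *ADAR*. *IRF3* had the widest interval, at 1.36 (-0.01 to 2.72). Differences within these intervals remain compatible with the data, and the smallest difference that could be detected was not computed.

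**Figure D2:**
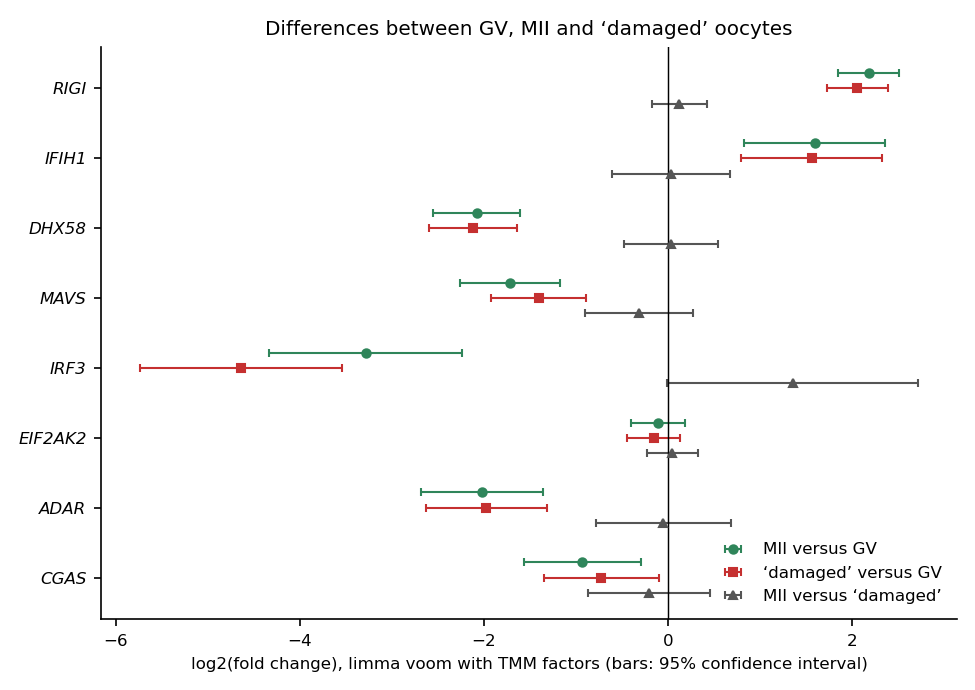
Log2 fold change (horizontal axis, limma voom with TMM factors) of the 8 tested sensing genes for MII versus GV (circles), ‘damaged’ versus GV (squares) and MII versus ‘damaged’ (triangles), with 95% confidence intervals as bars. *RIGI* and *IFIH1* lie above 0 and *DHX58*, *MAVS*, *IRF3* and *ADAR* below 0 in both comparisons with GV, and every triangle has an interval that holds 0.

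Within a stage, the order of levels changed with maturation. In GV oocytes *DHX58* led with 51.5 TPM ± 23.5 (SD, n = 4), followed by *EIF2AK2* with 40.1 ± 2.87 and *RIGI* with 26.3 ± 4.83. The libraries of the first pair overlapped, and *DHX58* was the higher in 3 of 4. *RIGI* lay below *EIF2AK2* in all 4. The others had 5.35 ± 3.39 TPM (*ADAR*), 3.10 ± 1.27 (*CGAS*), 2.17 ± 0.633 (*MAVS*), 1.91 ± 0.474 (*IRF3*) and 0.510 ± 0.174 (*IFIH1*), with overlapping neighbours except for the last. In MII oocytes *RIGI* led with 57.2 TPM ± 3.93 (SD, n = 5), ahead of *EIF2AK2* with 18.1 ± 1.64 and *DHX58* with 5.56 ± 0.844, in each of 5 libraries without overlap. The same 3 led in ‘damaged’ oocytes with 54.6 ± 6.86, 18.2 ± 3.10 and 5.83 ± 2.39 TPM (SD, n = 5). Behind them *CGAS*, *IFIH1*, *ADAR* and *MAVS* stood between 0.314 and 0.918 TPM on average in both groups, each overlapping the next, and *IRF3* was last. Among the 17897 genes whose transcripts were placed, *RIGI* stood at the 73.5th to 81.6th percentile of TPM in the 4 GV libraries and at the 89.1st to 90.9th in MIX libraries. TPM carries no TMM factor, so its levels are compared within a library and not between stages.

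The 3 transcripts with counts that were placed for *RIGI* also changed their shares. Transcript ENSSSCT00000048370.3, with 4314 bases the longest, held 79.1% ± 4.09 of the TPM of *RIGI* in GV (SD, n = 4), 43.3% ± 5.78 in MII and 43.3% ± 7.44 in ‘damaged’ oocytes (SD, n = 5 each). By library it held 75.0, 82.7, 82.6 and 76.3% in GV replicates 1, 2, 4 and 5 and 88.8% in GV replicate 3, against 35.01 to 52.1% in MIX. The transcript ENSSSCT00000058360.3 of 4009 bases went from 20.1% ± 4.06 in GV to 42.5% ± 6.35 in MII and 40.7% ± 0.943 in ‘damaged’ oocytes. The shortest, ENSSSCT00000026775.3 of 3249 bases, held at most 1.42% in any GV library and 6.66 to 27.3% in those of MIX. No GV library overlapped a MIX library for any of the 3, whose shares are parts of the same total and not separate results. How many of all transcripts tested separate in this way was not computed. All 3 were called in MIX versus GV (limma diffSplice, adjusted p = 5.63e-06, 7.97e-05 and 0.00254, in the order above), where 30.0% of 14542 transcripts tested over all genes were called at an adjusted p under 0.01 and a share difference over 10 percentage points. The third lost its call without GV replicate 4 (adjusted p = 0.0115) or GV replicate 5 (adjusted p = 0.0117). The transcripts share most reads, and the split is the authors' estimate by Kallisto from short single-end reads.

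**Figure D3:**
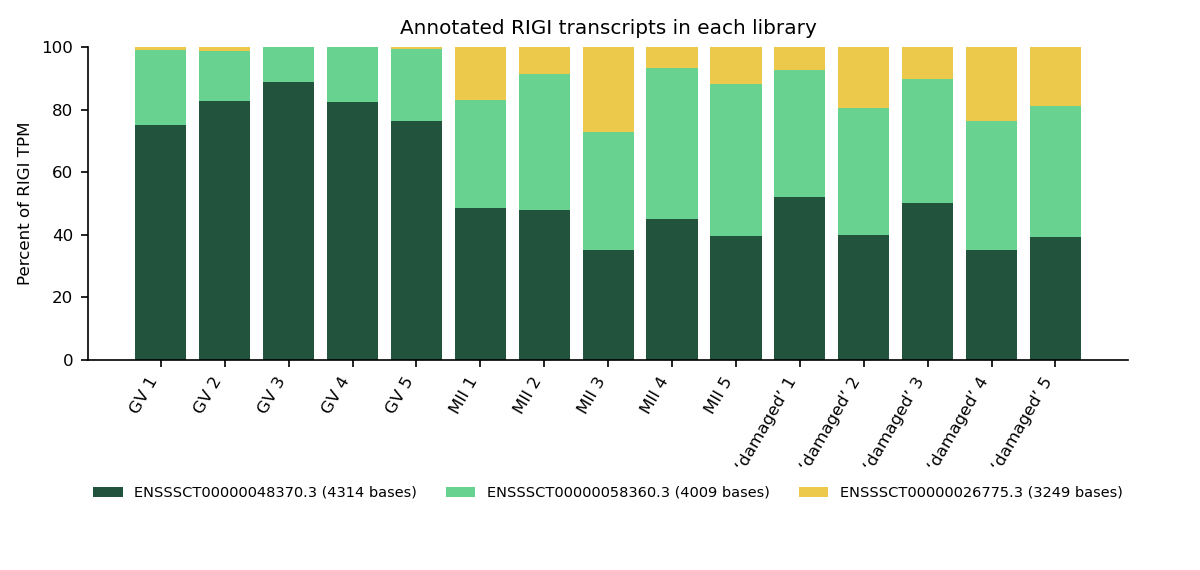
Share of each annotated *RIGI* transcript with counts in the TPM of the gene (vertical axis, percent) in each of the 15 libraries. The longest transcript holds 75.0% or more in every GV library, replicate 3 included, and at most 52.1% in every MII and ‘damaged’ library.

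Of the other genes, *DHX58*, *EIF2AK2* and *ADAR* had transcripts tested and none called, while without a filter on low counts 2 transcripts of *ADAR* and 2 of *IFIH1* were called. The 2 transcripts placed for *DHX58* held 64.4% and 35.6% in GV, 37.7% and 62.3% in MII and 44.2% and 55.8% in ‘damaged’ oocytes (adjusted p = 0.0238 for MIX versus GV). The main transcript of *EIF2AK2*, ENSSSCT00000034217.3, held 95.2% ± 2.19 in GV (SD, n = 4), 91.7% ± 2.43 in MII and 92.6% ± 2.15 in ‘damaged’ oocytes (SD, n = 5 each, adjusted p = 0.0811). *MAVS* and *CGAS* had 1 transcript with counts placed, and fewer than 2 transcripts each of *IFIH1* and *IRF3* passed the filter, so these genes were not tested.

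The wider pathway was described with 5 lists of genes. Of 213 listed genes with an identifier, 167 were tested, and 55 were called higher and 69 lower in MIX, which is 32.9% and 41.3% against 30.3% and 37.2% of all genes. Their median log2 fold change was -0.27, against -0.16 for all genes.

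The relay from the adaptors to *IRF3* and NF-κB had 7 of 26 tested genes higher and 12 lower, with a median of -0.63, and 3 higher and 17 lower on library sizes alone. The kinase *TBK1*, which phosphorylates IRF3, was at 1.68 CPM ± 0.599 in GV (SD, n = 4) and 8.28 ± 1.67 in MIX (SD, n = 10), a log2 fold change of 2.32. Its binding partner *TANK* rose from 48.9 CPM ± 22.1 to 196 ± 29.7 (2.09), and *TLR7*, an endosomal receptor of single-stranded RNA, from 43.3 CPM ± 8.38 to 117 ± 18.8 (1.44). *NFKB2* (-3.09), the death-domain adaptor *FADD* (-2.92) and the ubiquitin ligase *TRAF2* (-2.69) fell most. *TBK1* was thus higher while *IRF3* was lower. Another kinase of this list, *IKBKE*, was lower like *IRF3* (log2 fold change -2.58, limma adjusted p = 6.62e-08).

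Regulators of RIG-I, MDA5 and *MAVS* had 21 of 50 tested genes higher and 14 lower, with a median of 0.16. The RNA helicase *DDX3X* rose from 43.3 CPM ± 9.15 to 359 ± 93.9 (log2 fold change 3.03), the kinase subunit *CSNK2B* from 63.1 ± 9.66 to 253 ± 47.7 (1.99) and the deubiquitinase *CYLD* from 9.71 ± 1.64 to 36.01 ± 3.89 (1.90). The kinase *PRKCA* (-3.30), the ubiquitin ligase *SMURF1* (-2.94) and the deacetylase *HDAC6* (-2.79) fell. On library sizes alone, 7 of these 50 genes were called higher and 26 lower, with a median of -0.73. As in the other lists, the counts of higher and lower calls shift with the scaling, and so do those over all genes. On library sizes alone, 1598 of all 13228 genes tested were called higher and 7996 lower, with a median of -1.05.

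Other genes of double-stranded RNA binding, editing and decay had 7 of 23 higher and 9 lower, with a median of -0.39, and 5 higher and 14 lower on library sizes alone. The exonuclease *XRN1* rose from 24.5 CPM ± 3.57 to 128 ± 12.8 (log2 fold change 2.38), the mitochondrial RNA-degrading enzyme *PNPT1* from 83.3 ± 24.6 to 419 ± 56.2 (2.37), and *EIF2AK4*, a kinase of the same family as PKR, from 45.1 ± 3.35 to 171 ± 33.0 (1.90). *TARBP2*, a double-stranded RNA-binding partner of Dicer, was at 9.98 CPM ± 1.54 in GV and 0.528 ± 0.213 in MIX (-4.23). *ADAD2*, a testis-expressed relative of *ADAR*, was lower by 3.98 and *SKIC8*, a subunit of the Ski complex of RNA decay, by 3.91 on the log2 scale, with 280 CPM ± 68.1 in GV and 18.7 ± 5.13 in MIX for *SKIC8*.

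Regulators of cGAS and STING and enzymes of DNA clearance had 8 of 35 higher and 20 lower, with a median of -0.78, and 3 higher and 25 lower on library sizes alone. The SUMO protease *SENP7* (2.30), the chromatin protein *BANF1* (2.01), which keeps cGAS off DNA, and the DNA repair factor *NBN* (1.53) rose. The DNA exonuclease *TREX1*, which removes the DNA that cGAS would sense, had at least 29.2 estimated counts in each of 4 GV libraries and at most 2.96 in each MIX library, a fitted log2 fold change of -4.64. *SURF4* (-4.14) and *NPLOC4* (-3.59) also fell.

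Among interferon-stimulated and interferon-signalling genes, 35 of 62 with an identifier passed the filter, with 12 higher, 14 lower and a median of -0.33. On library sizes alone 4 were higher and 19 lower, with a median of -1.23. *PARP14* rose from 45.6 CPM ± 5.38 to 237 ± 45.2 (log2 fold change 2.36), *IRF2BP2*, a co-repressor of IRF2, by 2.01, and the interferon gamma receptor chain *IFNGR2*, at 0.295 to 0.529 CPM in GV, by 1.84, although it lost its call on library sizes alone (adjusted p = 0.0294). The transcription factor *IRF8* fell from 50.3 CPM ± 11.2 to 4.24 ± 1.84 (-3.62), and the inhibitor of viral frameshifting *SHFL* (-4.21) and the peptide transporter *TAP1* (-3.49) fell as well.

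**Figure D4:**
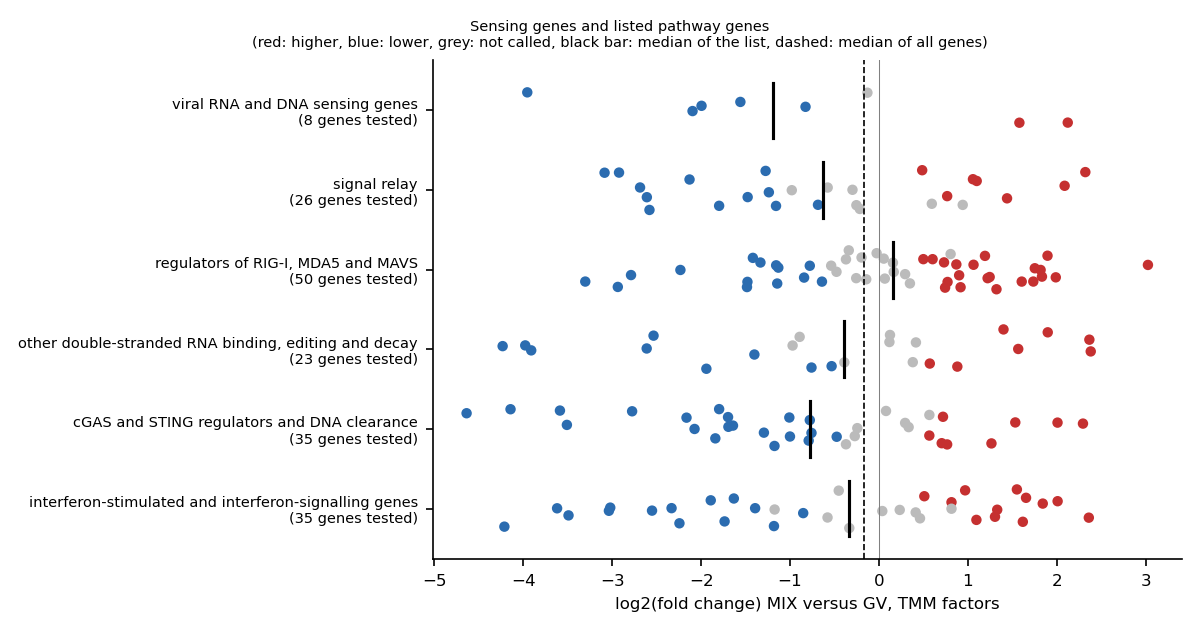
Log2 fold change of MIX versus GV (horizontal axis, TMM factors) of the 8 tested sensing genes and of the tested genes of 5 pathway lists. Each point is a gene, red where called higher, blue where called lower and grey where not called, the black bar is the median of a list, and the dashed line is the median of all genes at -0.16. All 6 rows hold genes called in both directions, and the 8 sensing genes have a median of -1.19.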

How the data were processed

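RNAseq files of 15 libraries of pig oocytes (5 GV, 5 MII, 5 ‘damaged’) were analysed. The authors trimmed reads with AfterQC and made the estimated counts and TPM per transcript with Kallisto (kallisto 0.43 in the submitters' notes) on the Ensembl cDNA of Sscrofa11.1. For the gene table, the authors summarised these with tximport (lengthScaledTPM), giving estimated counts that are not normalized across libraries.

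Of the gene table's 15 columns, 8 carry the name of the library with their total. The other 7 columns were not used for the fits. Transcripts were assigned to genes by matching their values to these 8 columns, which then gave gene counts for all 15 libraries. Of 13649 genes that reached 10 counts in 2 or more columns, 13648 were placed, and recomputed values of 10 or more differed from the deposited ones by 0.000286% or less. Symbols came from a gene name table (15527 of 22516 identifiers) and positions from RefSeq on Sscrofa11.1.

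Genes were kept by filterByExpr of edgeR 4.0.16 (minimum count 10, minimum total count 15) and tested over all genes with limma 3.58.1 (voom, TMM factors) in R 4.3.3 with GV replicates 1, 2, 4 and 5. MIX versus GV was a fit of 2 groups, and the other comparisons came from a fit of 3 groups. Transcript shares were tested with diffSplice in place of the study's IsoformSwitchAnalyzeR. Alternatives included library sizes, the edgeR quasi-likelihood test and DESeq2 1.42.0 (counts rounded), no filter, all 5 GV libraries, a replicate block and leaving out each library. All 30 pairs of libraries of a group differed beyond counting error (chi-square of 15.1 or more per gene). Intervals and limits for counts of 0 cover counting error only, as amplified reads are not independent molecules. Ratios used exact permutation tests in scipy 1.17.1, except in MIX versus GV where the separation of a ratio follows from genes that already separated the groups.

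The genes and lists were chosen with earlier results of these data known. Named are all 10 genes, and in each pathway list up to 3 rises and 3 falls with the largest log2 fold change among called genes with no overlap between 10 MIX and 4 GV libraries, and up to 3 markers with the highest mean CPM, with *CD14*, the first of the leukocyte list, while the other markers were named after their values were seen. A planned search of promoters for a motif was not run, as no promoter sequence was used here.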

Additional observations from a re-analysis of the deposited data

Results flagged for a closer look

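The level of *IRF3* in ‘damaged’ replicate 4 was 0.0834 CPM while the other 4 libraries of the group were at 0, so this library stood apart from the rest by the whole range of the group. The difference amounts to 1.30 estimated counts. It was the only value set apart in this way among 33 groups of libraries examined (8 genes and 3 *RIGI* transcripts in 3 groups), of which chance alone sets apart about 1 in 20.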

How the results depend on the processing

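On library sizes without TMM factors, 1 gene (*RIGI*) was called higher against GV in MIX, MII and ‘damaged’ oocytes alike, in place of 2. No sensing gene called in either scaling changed direction. In an alternative chosen after seeing the data, only the 8 libraries whose column name and total agree were kept. Then *RIGI* (log2 fold change 2.24), *IFIH1* (1.52), *DHX58* (-2.20), *MAVS* (-1.71), *ADAR* (-2.29) and *IRF3* (-3.69) kept their calls in MIX versus GV, *CGAS* lost its call (-0.58, adjusted p = 0.140), and 1 gene was called higher in ‘damaged’ oocytes, as *IFIH1* was not (adjusted p = 0.0140). In the same libraries the shortest *RIGI* transcript lost its call (adjusted p = 0.0423). Over all 13848 genes tested there, 3366 were called higher and 4314 lower in MIX. Without a filter on low counts, 7 transcripts of the sensing genes were called in place of 3, the others being 2 each of *ADAR* and *IFIH1*. The share of all transcripts called without the filter is not given here. Leaving out each library gave 2 genes higher and 4 to 5 lower in MIX, 2 and 4 to 5 in MII, 2 and 4 in ‘damaged’, 0 between MII and ‘damaged’, and 2 to 3 transcripts. The cause of these changes was not tested. With a replicate block, MIX had 2 genes higher and 5 lower, against 4060 and 4857 of all 13228 genes tested, and 2 transcripts were called. *CGAS* was then called in MII (-1.09, adjusted p = 0.000561) and ‘damaged’ oocytes (-0.97, adjusted p = 0.00137). The study made 5 collections, but the labels do not say that a number marks one. Same-numbered deviations from group means correlated by -0.15 to 0.42, over 0.1 in 5 of 13 pairs, and 5 of 13 were highest with their own number, so whether the numbers pair the libraries was not settled. Depth limits the 5 scarcer genes (*IFIH1*, *MAVS*, *ADAR*, *CGAS* and *IRF3*) most. By CPM in place of TPM, *EIF2AK2* ranked above *DHX58* and *IFIH1* above *IRF3* in GV, and no other rank moved.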

Other observations

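GV replicate 3, which is in no test, differed from the other GV libraries in several of the genes. It had the highest *ADAR* (38.7 CPM, against 7.82 to 22.2 in the other 4) and *CGAS* (17.9 CPM, against 5.17 to 9.71) and the lowest *RIGI* (19.2 CPM, against 33.4 to 66.4) and *EIF2AK2* (61.6 CPM, against 79.8 to 104). The leukocyte marker *CD14* was at 27.6 CPM in this library and at 8.66 CPM or less in the others, and the part of this in its values was not tested. Its *EIF2AK2* lay below all MIX libraries, whereas the other GV libraries overlapped them.

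The transcripts of the scarce genes were assigned unevenly between libraries of a group. All *IFIH1* in GV replicate 4 was assigned to transcript ENSSSCT00000017310.5, which held at most 0.675% in every other library. The transcript ENSSSCT00000087317.2 of *ADAR* held 74.4 to 99.9% in GV replicates 1, 2, 4 and 5 but 8.34% in GV replicate 3, where ENSSSCT00000097834.1 held 91.7%. In MII it ranged from 0 to 100%.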
